A study of Homo sapiens with 58 samples.

Results

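The 48 genes described here belong to the cell's response to amino acid shortage and to stress in the endoplasmic reticulum (ER), the compartment in which secreted and membrane proteins fold. They were followed in human embryonic stem cells on their way to somites, the segments of the early embryo that give rise to vertebrae and muscle. They were chosen by name from textbook membership of these pathways, with earlier results of these data known. They make up 48 of the 19084 genes in the deposited table. By role, 6 are transcription factors, 7 are feedback regulators and effectors, 11 are enzymes of amino acid and one-carbon metabolism, 7 are amino acid transporters, 5 act in ER folding and degradation and 12 are cytosolic tRNA synthetases.

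The response works as a relay. When charged tRNAs run short, or when unfolded proteins build up in the ER, stress kinases phosphorylate the initiation factor eIF2-alpha, bulk translation slows, and the mRNA of the transcription factor ATF4 is translated more. ATF4, usually paired with a C/EBP protein, binds a short composite DNA element (CARE) at genes that make, import and charge amino acids, while the factors XBP1 and ATF6 act on ER chaperone genes through the ER stress element (ERSE). Because ATF4 is controlled mainly at translation, its mRNA level and its activity need not move together. Pluripotent stem cells are known for a high demand for amino acids and one-carbon units.

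All 58 RNA-seq libraries came from wild-type H1 cells, an established line of human embryonic stem cells: 3 libraries on each of 4 days and 2 at each of 23 time points. Day0 cells were undifferentiated stem cells kept in E8 medium. Day1 cells, labelled mesendoderm, from which both mesoderm and endoderm arise, had spent 24 hours in E8 with 100 ng/mL activin A and 3 µM CHIR99021, an activator of Wnt signalling. Day2 cells, labelled presomitic mesoderm, had spent a further 24 hours in E6, which is E8 without FGF2 and TGFβ1, with 100 ng/mL NOGGIN (a BMP antagonist), 100 ng/mL FGF2, 3 µM CHIR99021 and 2 µM A83-01 (an inhibitor of activin and nodal receptors). Day3 cells, labelled somite, were in E6 with 100 ng/mL NOGGIN, 2 µM A83-01, 2.5 µM IWR1 (a Wnt inhibitor) and 1 µM PD0325901 (a MEK inhibitor). The time course is labelled presomitic mesoderm, runs from 30 to 690 min in steps of 30 min, and its labels give neither its medium nor its zero point. Base medium and added factors changed together between days, so the effect of any 1 component cannot be told apart from the rest.

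Total expected counts were 3.16 to 7.81 M per daily library (median 5.13 M) and 2.53 to 8.96 M per course library (median 4.12 M). Levels are CPM, a gene's counts relative to library size, with library sizes scaled by the trimmed mean of M-values (TMM), within each series. Genes are compared with each other only in TPM, which corrects for transcript length. Nothing in the labels tells whether replicates were grown separately. The p-values therefore reflect only how far these libraries differ, and that spread may be technical. In bulk RNA, fewer cells of a type and less RNA per cell cannot be told apart. Markers of each stage were summed to check the labels. Pluripotency markers were highest on Day0 (2619.9 to 3195 CPM), mesendoderm markers on Day1 (1007 to 1097 CPM) and somite markers on Day3 (526 to 636 CPM, against 19.4 to 29.3 CPM on Day2). Presomitic markers summed to 191 to 252 CPM on Day3, against 109.7 to 222 CPM on Day2, and at most 21.1 CPM on earlier days. Their sum therefore did not set Day2 apart from Day3, but single markers differed. From Day2 to Day3 the mean of TBX6 went from 14.7 to 0.507 CPM and that of MSGN1 from 32.0 to 0.216 CPM. HES7 (from 1.04 to 0.558 CPM) and DLL3 (from 59.4 to 24.7 CPM) were lower too, while DLL1 rose from 59.6 to 204 CPM. In the course, somite markers summed to 706 to 985 CPM at 630 to 690 min, against 8.38 to 20.1 CPM at 30 to 90 min. The late libraries therefore carry somite markers under a presomitic label. Presomitic markers summed to 611 to 758 CPM, against 512 to 619 CPM, but here too single markers differed. Between these blocks the mean of TBX6 went from 62.46 to 10.96 CPM, MSGN1 from 39.8 to 2.02 CPM and HES7 from 13.8 to 2.66 CPM. DLL1 rose from 161 to 342 CPM and DLL3 from 292 to 345 CPM.

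Sequence elements known to bind ATF4 or the ER stress factors were looked for in the promoters. RefSeq promoter windows (GRCh38.p14, 250 bases before to 50 after each start) were matched to 40 of the 48 genes, 10 of them through a current symbol that adds a 1 (WARS as WARS1). Windows were searched on both strands. The CARE motif TGATGNAA was found in 15 of the 40 genes (37.5%), against 4.46% of 27305 genes with a window. TTGCATCA, which is 1 form of that motif read on the other strand and overlaps it wherever it occurs, was found in 10 of the 40 (25%), against 1.08% of all. The ERSE, CCAAT followed after 9 bases by CCACG, was found in 3 of the 40 (7.5%), against 0.0916% of all, and TGACGTGG, the core of another ER stress element, in 2 (5%; ALDH18A1 and CARS), against 0.927%. The other 9 genes with TGATGNAA, beside the 6 printed here, were ATF3, SLC3A2, AARS, GARS, NARS, TARS, IARS, MARS and CARS. A match is a description of the letters and not a bound site. The 48 genes were picked as known members of these pathways, so the shares describe the list and are not a test of it. Shares are per gene over all of its windows, 60 for the 40 genes and 35116 for all 27305. Shown first, because ATF4 is the factor known to bind the element, are the 6 genes that changed most over the days among those whose match lies within the stretch printed, from 225 bases before the start to 25 from it, each 5′ to 3′ on the gene's strand with the motif in capitals. They lie at chr15:40953246-40953495 (plus strand) for CHAC1, chr2:64989174-64989423 (plus strand) for SLC1A4, chr13:29595664-29595913 (minus strand) for SLC7A1, chr7:97872384-97872633 (minus strand) for ASNS, chr19:46784790-46785039 (minus strand) for SLC1A5 and chr16:56931917-56932166 (plus strand) for HERPUD1. The match begins 209 bases before the start in CHAC1, 7 in SLC1A4, 68 in ASNS, 97 in SLC1A5 and 176 in HERPUD1, and just after it in SLC7A1. Distances are counted from the start to which each printed stretch belongs. ASNS, SLC1A4 and SLC1A5 have more than 1 start, and their other windows hold no match. For SLC1A5 those windows lie upstream, at chr19:46788545-46788844 and chr19:46787244-46787543.
CHAC1: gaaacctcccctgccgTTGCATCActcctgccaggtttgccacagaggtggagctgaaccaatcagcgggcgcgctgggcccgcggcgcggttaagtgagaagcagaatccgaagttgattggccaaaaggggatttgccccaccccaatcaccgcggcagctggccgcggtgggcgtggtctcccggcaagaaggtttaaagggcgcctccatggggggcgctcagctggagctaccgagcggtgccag
SLC1A4: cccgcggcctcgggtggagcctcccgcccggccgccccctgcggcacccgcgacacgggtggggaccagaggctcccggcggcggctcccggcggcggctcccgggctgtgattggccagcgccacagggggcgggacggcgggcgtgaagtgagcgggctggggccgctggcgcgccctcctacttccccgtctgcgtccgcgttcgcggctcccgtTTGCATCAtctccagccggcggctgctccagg
SLC7A1: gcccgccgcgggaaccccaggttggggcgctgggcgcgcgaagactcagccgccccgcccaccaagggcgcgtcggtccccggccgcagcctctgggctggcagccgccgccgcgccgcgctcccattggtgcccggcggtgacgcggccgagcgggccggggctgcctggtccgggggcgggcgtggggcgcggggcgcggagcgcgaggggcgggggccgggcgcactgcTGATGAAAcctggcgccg
ASNS: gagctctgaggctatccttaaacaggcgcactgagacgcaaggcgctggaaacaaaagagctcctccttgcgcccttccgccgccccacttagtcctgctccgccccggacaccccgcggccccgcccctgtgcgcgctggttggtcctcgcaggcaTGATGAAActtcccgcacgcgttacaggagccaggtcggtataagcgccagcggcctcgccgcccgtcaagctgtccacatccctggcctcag
SLC1A5: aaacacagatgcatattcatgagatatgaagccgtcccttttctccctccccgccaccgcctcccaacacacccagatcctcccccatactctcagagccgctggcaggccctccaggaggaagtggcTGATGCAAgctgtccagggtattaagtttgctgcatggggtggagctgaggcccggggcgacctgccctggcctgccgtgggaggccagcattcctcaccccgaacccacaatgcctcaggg
HERPUD1: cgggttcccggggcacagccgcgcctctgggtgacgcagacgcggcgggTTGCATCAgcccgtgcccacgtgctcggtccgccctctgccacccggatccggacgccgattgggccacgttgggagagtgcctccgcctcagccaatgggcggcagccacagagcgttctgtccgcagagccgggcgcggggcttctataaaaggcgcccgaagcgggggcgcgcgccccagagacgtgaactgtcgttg

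The 3 genes that hold an ERSE are XBP1, the transcription factor of the unfolded protein response, and the chaperones HSPA5 (BiP) and HSP90B1 (GRP94). Their windows, drawn in the same way, lie at chr22:28800545-28800794 (minus strand) for XBP1, chr9:125241319-125241568 (minus strand) for HSPA5 and chr12:103930185-103930434 (plus strand) for HSP90B1. Capitals mark CCAAT and CCACG, the ends of the element, which begins 52 bases before the start in XBP1 and 66 in HSPA5. HSP90B1 holds 2 copies on opposite strands, beginning 194 and 89 bases before the start. Another window of XBP1, at a different start, holds no such element.
XBP1: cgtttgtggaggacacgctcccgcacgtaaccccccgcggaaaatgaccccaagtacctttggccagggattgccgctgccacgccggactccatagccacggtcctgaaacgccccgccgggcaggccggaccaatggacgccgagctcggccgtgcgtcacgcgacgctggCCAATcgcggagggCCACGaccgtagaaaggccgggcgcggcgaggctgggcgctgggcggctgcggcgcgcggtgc
HSPA5: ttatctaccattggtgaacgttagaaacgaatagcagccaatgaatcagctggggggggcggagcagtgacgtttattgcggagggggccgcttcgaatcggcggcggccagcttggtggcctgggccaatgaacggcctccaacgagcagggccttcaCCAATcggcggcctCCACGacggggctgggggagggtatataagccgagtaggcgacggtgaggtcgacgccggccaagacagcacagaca
HSP90B1: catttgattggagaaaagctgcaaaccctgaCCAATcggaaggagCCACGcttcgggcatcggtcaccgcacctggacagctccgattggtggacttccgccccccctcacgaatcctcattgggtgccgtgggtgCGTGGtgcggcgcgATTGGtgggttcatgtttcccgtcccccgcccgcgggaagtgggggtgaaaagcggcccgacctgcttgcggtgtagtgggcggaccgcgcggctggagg

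Most of the 47 genes that could be tested had their highest mean in mesendoderm cells, on Day1. Of the 47, 42 changed over the 4 days (edgeR quasi-likelihood F test, adjusted p under 0.05), against 43.6% of the 12765 genes tested. The mean level was highest on Day1 for 30 of the 47, against 19.3% of all genes, on Day0 for 8, on Day2 for 5 and on Day3 for 4. All 7 transporters, all 11 enzymes and all 12 synthetases tested were among the 42 that changed. The 5 that did not pass were ATF3 (adjusted p = 0.0577), DDIT3 (0.0643), VLDLR (0.0735), DNAJB9 (0.541) and SDF2L1 (0.64). NUPR1, a stress-induced nuclear protein, had 3 counts in all on Day1, 1 on Day2 and 0 on the other days, and was not tested.

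**Figure D1:**
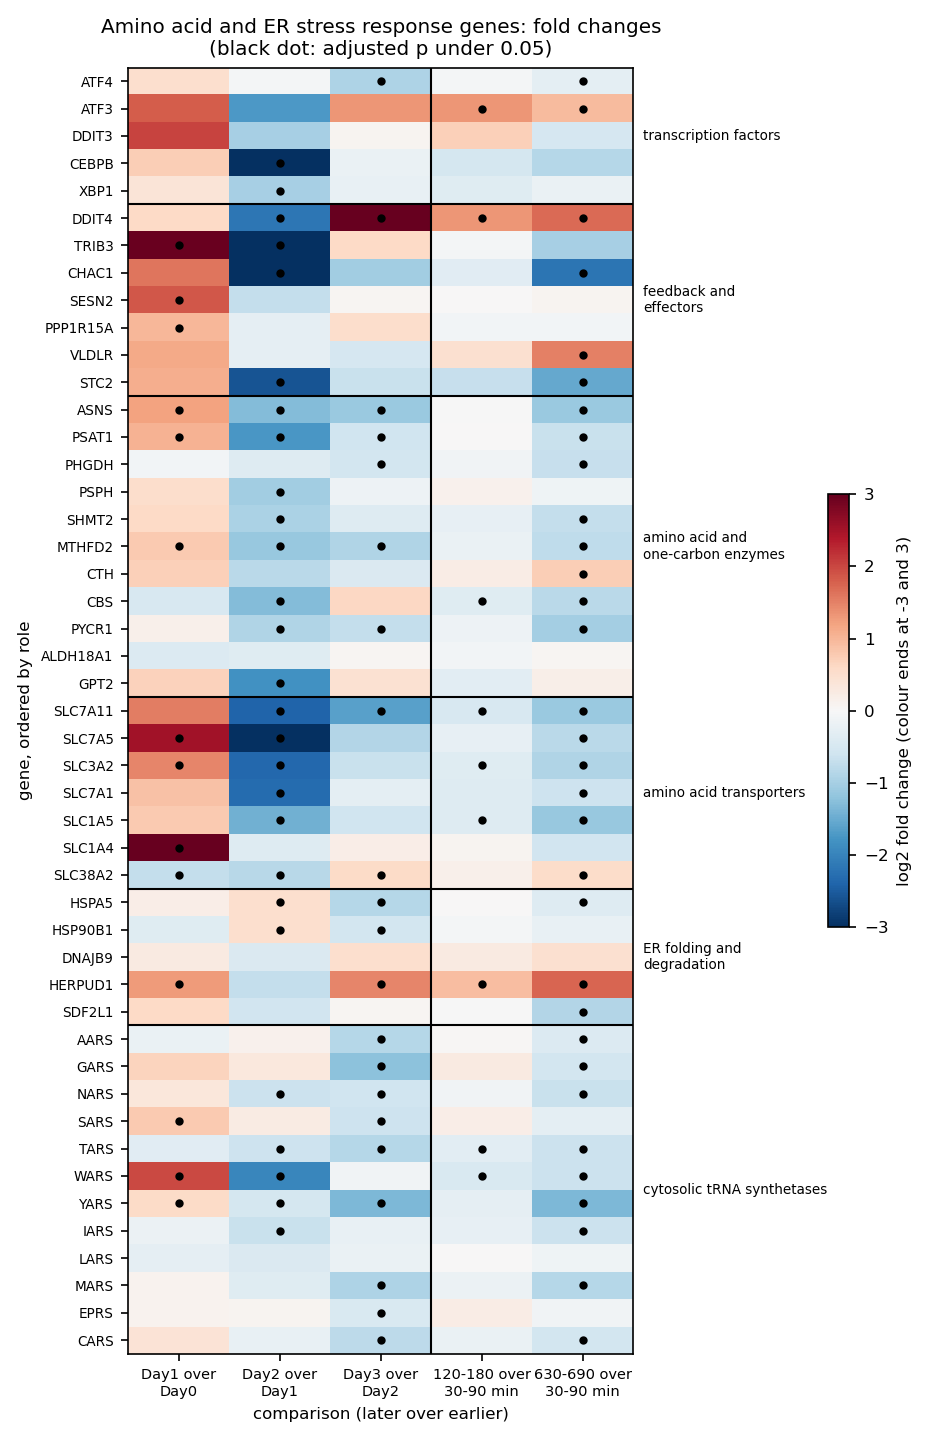
Log2 fold change (colour) of each of the 47 tested genes (rows, by role) in 5 comparisons (columns, later over earlier), with a black dot where the adjusted p was under 0.05. The first column is mostly red, the second mostly blue with 25 genes lower, and most synthetases are blue with a dot on Day3 and at 630 to 690 min.

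On Day1 against Day0, 3 of 7 transporters, 3 of 11 enzymes and 3 of 12 synthetases rose, among them the leucine transporter SLC7A5 (5.76-fold), the tryptophan tRNA synthetase WARS (3.96-fold) and asparagine synthetase ASNS (2.31-fold). The only fall called was that of the transporter SLC38A2 (1.65-fold). Of 47 genes tested, 13 were higher on Day1, against 3.69% of all genes, and 1 was lower, against 3.6% of all. With a limit of 1 log2 unit, 9 were higher (2.72% of all), and SLC38A2 fell by less than that (2.46% of all genes were lower by at least 1). The median log2 change of the 47 was 0.66, against -0.01 over all genes. The 13 were the synthetases WARS, SARS and YARS, the transporters SLC7A5, SLC3A2 and SLC1A4, the enzymes ASNS, PSAT1 and MTHFD2, the regulators TRIB3, PPP1R15A and SESN2, and HERPUD1. Calls of WARS, SLC7A5, ASNS, SARS, TRIB3 and SLC38A2 held under all 20 other settings tried that put no limit on the size of the change. PPP1R15A lost its call without any 1 of the 6 libraries of Day0 and Day1 (adjusted p 0.0542 to 0.113), SESN2 without any 1 of the 3 Day1 libraries (0.0648 to 0.101), YARS without Day0 replicate 1 or 3 or Day1 replicate 1 or 2 (0.101 to 0.114), and HERPUD1 without Day0 replicate 1 (0.0784) or Day1 replicate 2 (0.132). MTHFD2, PSAT1, SLC1A4 and SLC3A2 lost theirs with limma on log2(TPM + 0.1) (0.0612 to 0.0739). The 13 became 5 under that limma setting, 27 with the 6 libraries of both days alone and 9 to 18 with 1 library left out. Over all 12765 genes, 250 were higher under that limma setting and 1157 with the 6 libraries alone, against 471 in the main fit. Without Day3 replicate 3 the lower genes numbered 2 (529 over all genes).

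On Day2 against Day1 the direction turned. SLC7A5 was 9.48-fold lower, SLC3A2 5.09-fold, WARS 3.91-fold and the serine enzyme PSAT1 3.37-fold, while the chaperone HSPA5 was 1.42-fold higher. In the presomitic mesoderm libraries 25 of 47 genes were lower than in mesendoderm, against 11.5% of all genes, and 2 were higher, HSPA5 and HSP90B1, against 8.67% of all. Lower by at least 1 log2 unit were 17 (8.16% of all), while both chaperones rose by less than that (3.58% of all genes were higher by at least 1). The median log2 change was -0.81, against -0.04 over all genes, and 41 of 47 fitted changes were below 0. The 25 held 6 of 7 transporters, 8 of 11 enzymes, 4 of 7 regulators, 5 of 12 synthetases and 2 of 5 transcription factors. The summed level of 5 neural markers was 687 to 1092 CPM on Day2, against 338 to 502 CPM on Day1, with none of the 5 at 0, and its part in these changes was not tested. With library totals in place of TMM, a setting chosen after seeing the data, the median over all genes shifted by -0.147 log2 and the share of higher genes among all calls was 26.6% in place of 43.1%, while 2 of the 47 genes were higher and 28 lower.

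On Day3 against Day2 9 of 12 tRNA synthetases and ATF4 itself fell, YARS 2.53-fold, GARS 2.33-fold and ATF4 1.91-fold, and HSPA5 fell 1.79-fold. DDIT4 rose 8.49-fold and HERPUD1 2.77-fold. In the somite libraries 18 of 47 genes were lower, against 11% of all genes, and 3, DDIT4, HERPUD1 and SLC38A2, were higher, against 11.6% of all. With a limit of 1 log2 unit, 4 were lower (4.03% of all) and 2 higher (9.03%). The median log2 change was -0.45, against 0.08 over all genes. The 18 held 9 of 12 synthetases, 5 of 11 enzymes, HSPA5, HSP90B1, SLC7A11 and ATF4. This count depended on scaling: with library totals the median over all genes shifted by 0.239 log2, the share of higher genes among all calls was 76.6% in place of 51.3%, and 5 of the 47 were higher and 9 lower. limma on log2(TPM + 1) called 7 lower and the fit on the 6 libraries of both days 10. Over all genes these settings called 506 and 574 lower, against 1407 in the main fit. Without Day2 replicate 3 or without Day3 replicate 2 there were 5 higher genes (1636 and 1439 over all genes). Neural markers summed to 541 to 901 CPM on Day3, against 687 to 1092 CPM on Day2. From Day2 to Day3 the means of STMN2 (491 to 269 CPM), PAX6 (60.9 to 27.6) and ELAVL3 (10.5 to 7.67) were lower. Those of TUBB3 (318 to 412 CPM) and SOX1 (11.8 to 24.6) rose. The part of neural markers in these changes was not tested.

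**Figure D2:**
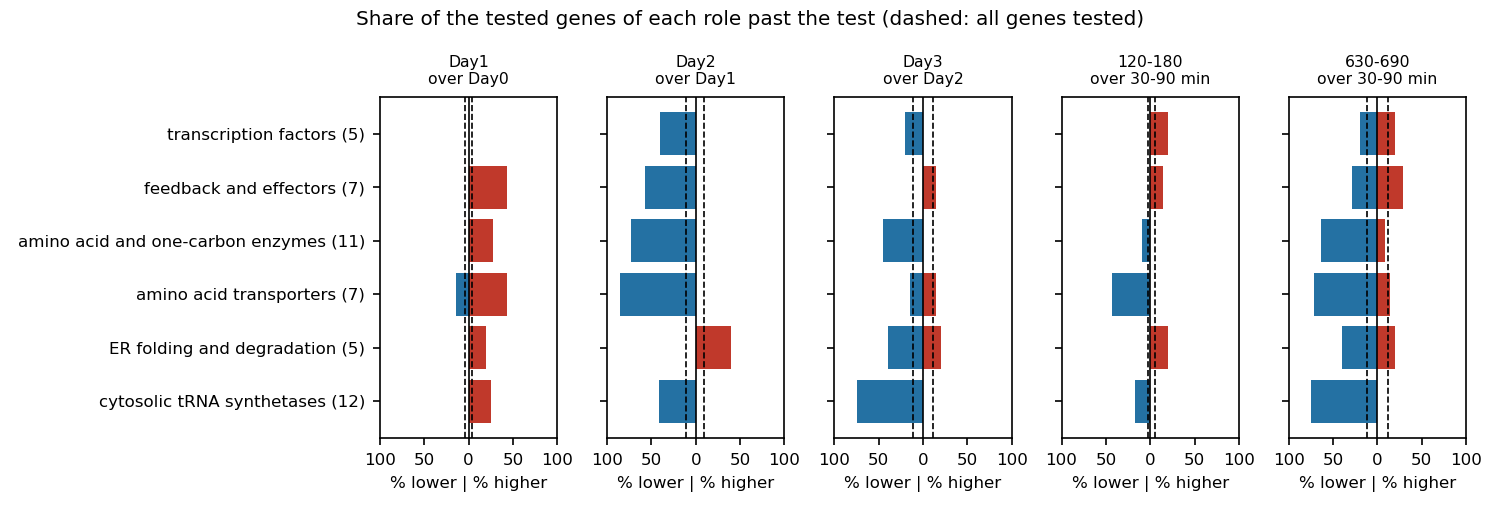
Share of the tested genes of each role (rows, number tested in brackets) that were lower (blue, to the left) or higher (red, to the right) at adjusted p under 0.05 in each comparison (panels, later over earlier), with the same shares over all genes tested as dashed lines. Transporters reached 85.7% lower on Day2, and synthetases 75% lower on Day3 and again at 630 to 690 min.

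Among the transcription factors, ATF4 mRNA fell from presomitic mesoderm to somite cells, while its earlier steps between days did not pass. ATF4, the central factor, had 220.3, 258 and 242 CPM on Day0, 335, 385 and 307 CPM on Day1, 349, 351 and 290.1 CPM on Day2 and 180.2, 209.7 and 128 CPM on Day3. The Day1 and Day2 libraries overlapped, and each Day3 library lay below every library of the other days. It was 1.91-fold lower on Day3 than on Day2 (log2 -0.94, SE 0.17, adjusted p = 0.00168), a call that held under all 20 settings without a size limit. On Day1 against Day0 the log2 change was 0.51 ± 0.17 (SE, adjusted p = 0.0832), and on Day2 against Day1 it was -0.05 ± 0.17 (adjusted p = 0.865). In TPM, ATF4 averaged 413 ± 47.9 on Day0, 542 ± 50.5 on Day1, 462 ± 28.1 on Day2 and 289 ± 62.3 on Day3 (SD, n = 3 each), the highest of the 6 factors on every day.

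XBP1, which turns on ER folding genes once its mRNA is spliced, had 65.0, 67.3 and 62.7 CPM on Day0, 80.2, 104 and 70.3 CPM on Day1, 58.1, 35.3 and 34.8 CPM on Day2 and 25.7, 45.0 and 39.2 CPM on Day3. It was 1.98-fold lower on Day2 than on Day1 (log2 -0.99, SE 0.25, adjusted p = 0.0123), with no overlap, and the call was lost without Day1 replicate 2 (adjusted p = 0.0748) or Day2 replicate 2 (0.0575). CEBPB, a partner of ATF4, was near 0 after Day1, at 0.635, 1.77 and 0.300 CPM on Day2 against 8.85, 12.4 and 4.31 CPM on Day1. Its 9.44-fold drop (log2 -3.24, SE 0.92, adjusted p = 0.0217) rests on 8 counts in all on Day2 and was lost without any of 4 single libraries (Day1 replicate 1 or 2, Day2 replicate 1 or 3, adjusted p 0.053 to 0.101).

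ATF3, a stress-induced factor that follows ATF4, had 3.72, 8.73 and 8.62 CPM on Day0, 21.2, 24.1 and 28.4 CPM on Day1, 1.59, 7.77 and 12.9 CPM on Day2 and 3.60, 23.2 and 29.2 CPM on Day3. All 3 Day1 libraries lay above all 3 Day0 libraries, and Day2 and Day3 were too scattered to separate. None of its steps passed (adjusted p = 0.106 for Day1, 0.0797 for Day2 and 0.161 for Day3). DDIT3 (CHOP), linked to cell death under lasting ER stress, had 1.79, 2.18 and 4.997 CPM on Day0, 8.38, 20.9 and 7.25 CPM on Day1, 6.67, 4.59 and 7.21 CPM on Day2 and 8.09, 3.97 and 7.61 CPM on Day3. Its log2 change was 2.03 ± 0.61 (SE) on Day1 against Day0 (adjusted p = 0.0532), with no overlap, and no other step came nearer to the threshold. An exon of DDIT3 overlaps one of MARS by up to 62 bases on the opposite strand, and the sources used here do not say whether reads were counted by strand. By edgeR, 0 of the 5 factors tested were called higher on Day1, with 3 at an unadjusted p under 0.05, and DESeq2 and limma each called 1.

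Among the feedback regulators, TRIB3 was high on Day1 alone, and DDIT4 was highest on Day3. TRIB3 is a pseudokinase that restrains ATF4. It had 1.78, 5.71 and 3.45 CPM on Day0, 29.1, 32.0 and 24.6 CPM on Day1, 3.49, 0.353 and 3.00 CPM on Day2 and 3.52, 2.93 and 3.98 CPM on Day3. Every Day1 library lay far above every library of the other days. It was 7.85-fold higher on Day1 than on Day0 (log2 2.97, SE 0.57, adjusted p = 0.0037) and 12.2-fold lower on Day2 than on Day1 (log2 -3.61, SE 0.62, adjusted p = 9.53e-04). CHAC1, which degrades glutathione and is a direct ATF4 target, had 3.72, 12.2 and 4.65 CPM on Day0, 16.5, 23.8 and 22.1 CPM on Day1, 0, 3.53 and 0.300 CPM on Day2 and 1.26, 0 and 0.468 CPM on Day3. The Day1 libraries stood above all others, and Day2 and Day3 held 11 counts each in all. It was 16.7-fold lower on Day2 than on Day1 (log2 -4.06, SE 0.98, adjusted p = 0.00896), while its Day1 step, log2 1.60 ± 0.81 (SE), did not pass (adjusted p = 0.27).

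DDIT4 (REDD1), an inhibitor of the growth kinase complex mTORC1, had 38.6, 32.6 and 106 CPM on Day0, 85.0, 108 and 75.2 CPM on Day1, 12.4, 18.7 and 28.5 CPM on Day2 and 182, 145 and 181 CPM on Day3. Its Day2 libraries were the lowest and its Day3 libraries the highest of all, with no overlap between these days. It was 4.48-fold lower on Day2 than on Day1 (log2 -2.16, SE 0.39, adjusted p = 0.00135) and 8.49-fold higher on Day3 than on Day2 (log2 3.09, SE 0.40, adjusted p = 8.86e-05), and both calls held under all 20 settings without a size limit. SESN2, a leucine sensor that also restrains mTORC1, had 28.6, 23.6 and 22.3 CPM on Day1, against 1.60, 9.40 and 9.82 CPM on Day0, and was 3.62-fold higher (log2 1.86, SE 0.49, adjusted p = 0.0281). PPP1R15A (GADD34), which brings a phosphatase to eIF2-alpha and so ends the response, had 68.9, 71.2 and 88.8 CPM on Day1, against 40.1, 38.1 and 36.4 CPM on Day0, and was 2.00-fold higher (log2 1.00, SE 0.26, adjusted p = 0.0265). As given with the counts for Day1, the calls of both depended on single libraries: SESN2 reached adjusted p = 0.101 and PPP1R15A 0.113 without 1 library. STC2, a secreted glycoprotein, was 5.97-fold lower on Day2 (7.62, 12.4 and 22.5 CPM) than on Day1 (72.6, 82.8 and 99.9 CPM, adjusted p = 2.72e-04). VLDLR, a lipoprotein receptor, was called in none of the steps between days (adjusted p 0.0804 for Day1, 0.646 for Day2 and 0.363 for Day3).

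**Figure D3:**
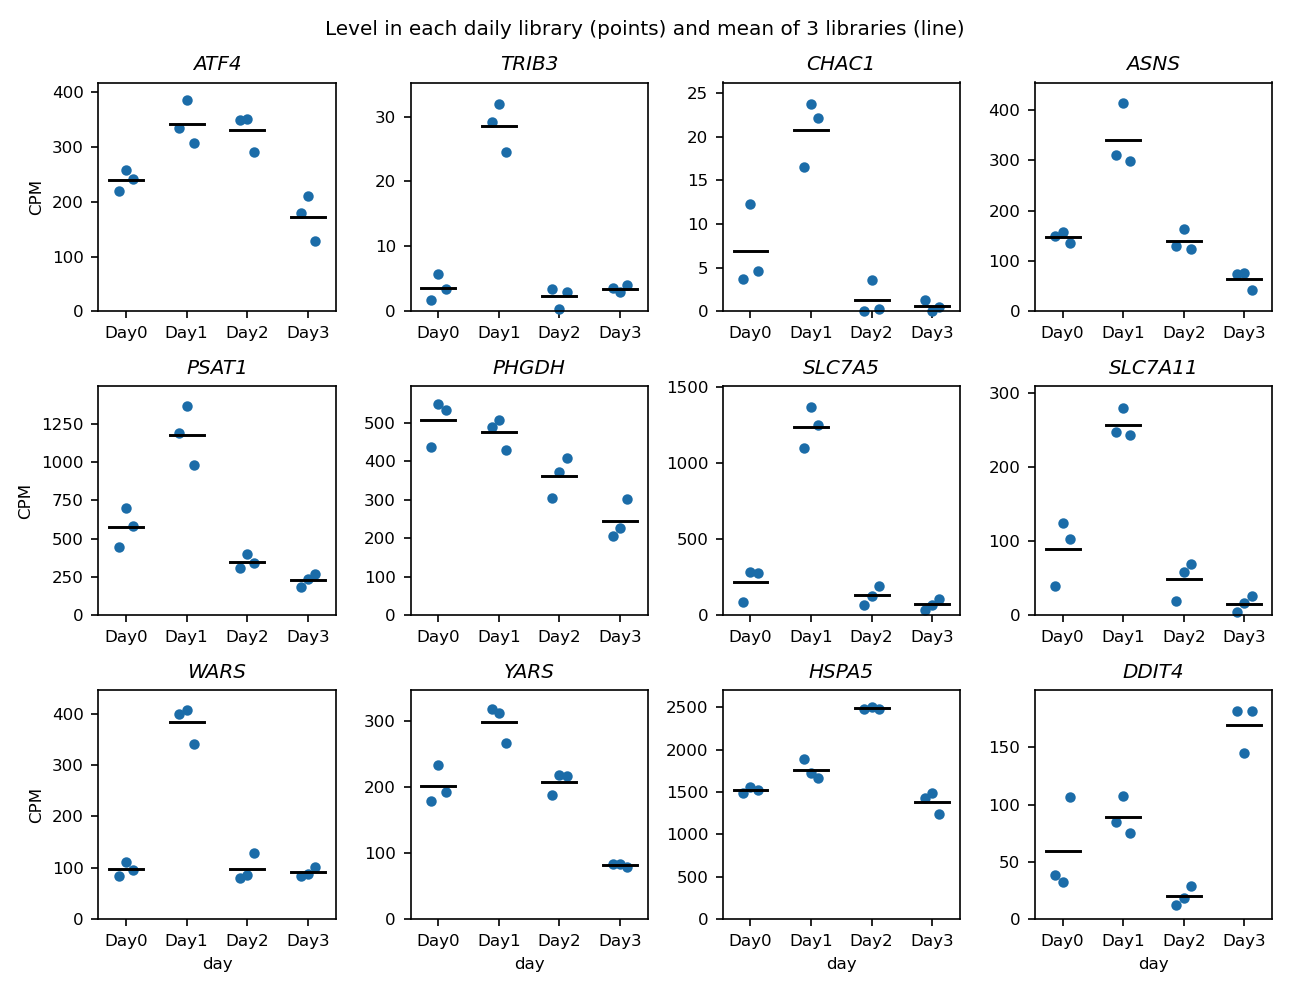
CPM of 12 genes (panels, own linear scale from 0) in each of the 3 libraries of each day (points), with the mean as a line. TRIB3, CHAC1, ASNS, PSAT1, SLC7A5, SLC7A11 and WARS are highest on Day1, HSPA5 is highest on Day2, and DDIT4 is highest on Day3.

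Among the enzymes, ASNS, PSAT1 and MTHFD2 were highest on Day1 and fell in both later steps, whereas PHGDH and CBS had their highest mean on Day0. ASNS, which makes asparagine, had 149.7, 158 and 136 CPM on Day0, 310.2, 414 and 299 CPM on Day1, 129, 164 and 125 CPM on Day2 and 74.1, 76.2 and 42.2 CPM on Day3. All Day1 libraries lay above all others and all Day3 libraries below. It was 2.31-fold higher on Day1 than on Day0 (log2 1.21, SE 0.21, adjusted p = 0.00163), 2.45-fold lower on Day2 than on Day1 (log2 -1.29, SE 0.21, adjusted p = 7.41e-04) and 2.18-fold lower on Day3 than on Day2 (log2 -1.12, SE 0.21, adjusted p = 0.00194), and these 3 calls held under all 20 settings without a size limit. PSAT1, the middle enzyme of serine synthesis, had 446, 698 and 584 CPM on Day0, 1189, 1364 and 981 CPM on Day1, 307, 402 and 339.6 CPM on Day2 and 185, 236 and 269.9 CPM on Day3. Its Day1 libraries stood apart at the top, 2.05-fold higher than on Day0 (log2 1.03, SE 0.19, adjusted p = 0.00218). The level was 3.37-fold lower on Day2 than on Day1 (log2 -1.75, SE 0.19, adjusted p = 2.00e-05) and 1.52-fold lower on Day3 than on Day2 (adjusted p = 0.0298), where the call was lost without Day2 replicate 2 (0.0926), Day3 replicate 1 (0.118) or Day3 replicate 2 (0.0529), and by more with library totals (log2 -0.36, 0.179) and limma on log2(TPM + 1) (log2 -0.36, 0.316).

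PHGDH, the first and committed enzyme of the same serine pathway, did not rise on Day1. It had 437, 549 and 534 CPM on Day0, 489, 508 and 429.8 CPM on Day1, 303, 372 and 409 CPM on Day2 and 206, 226 and 302 CPM on Day3. Day0 and Day1 overlapped (log2 -0.09 ± 0.17, SE, adjusted p = 0.826), the Day2 step did not pass (adjusted p = 0.104), and Day3 was 1.48-fold lower than Day2 (log2 -0.56, SE 0.17, adjusted p = 0.0246). That last call was lost without Day2 replicate 3 (0.0526), Day3 replicate 1 (0.0984) or Day3 replicate 2 (0.067), and by more with library totals (log2 -0.32, 0.188), with limma on log2(TPM + 1) (log2 -0.30, 0.361) and with the 6 libraries of both days alone (0.0887). PSPH, the last enzyme of the pathway, was 2.07-fold lower on Day2 (65.9, 54.6 and 69.8 CPM) than on Day1 (153, 142 and 99.6 CPM, adjusted p = 0.00171). In TPM on Day1, PSAT1 averaged 1209 ± 169, PHGDH 530.5 ± 32.3 and PSPH 139 ± 26.6 (SD, n = 3 each).

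MTHFD2, a mitochondrial enzyme of one-carbon metabolism, was called in the same directions as ASNS in all 3 steps. It had 183, 217 and 164 CPM on Day0, 296, 364 and 306 CPM on Day1, 143, 164 and 135 CPM on Day2 and 81.2, 83.01 and 70.6 CPM on Day3. No library of Day1 overlapped another day, and Day3 lay below all. It was 1.71-fold higher on Day1 (log2 0.78, SE 0.16, adjusted p = 0.00511), 2.19-fold lower on Day2 (log2 -1.13, SE 0.16, adjusted p = 2.32e-04) and 1.88-fold lower on Day3 (log2 -0.91, SE 0.16, adjusted p = 0.00103), each against the day before. The Day1 call was lost with limma on log2(TPM + 1) (adjusted p = 0.0595). A long exon overlap of 1324 bases with SLC4A5 on the opposite strand makes its share of reads uncertain. SHMT2, which feeds MTHFD2 from serine, was 1.93-fold lower on Day2 (91.7, 108 and 109 CPM) than on Day1 (176, 246 and 175 CPM, adjusted p = 0.00217). GPT2, which makes alanine, was 3.53-fold lower on Day2 (31.1, 81.9 and 56.1 CPM) than on Day1 (215, 206 and 176 CPM, adjusted p = 3.16e-04).

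CBS, the entry to cysteine synthesis from homocysteine, had on Day0 256, 293 and 308 CPM. It was 2.47-fold lower on Day2 (66.3, 69.2 and 113 CPM) than on Day1 (190.5, 237 and 188 CPM, adjusted p = 0.00174). CTH, the next enzyme of that route, was called in no single step (smallest adjusted p 0.129, Day2). Of the proline enzymes, PYCR1 was 1.87-fold lower on Day2 (22.5, 28.96 and 31.5 CPM) than on Day1 (42.9, 61.1 and 51.3 CPM, adjusted p = 0.0169), a call lost without Day1 replicate 2 (0.0936) or Day2 replicate 1 (0.0595). On Day3 PYCR1 passed barely (adjusted p = 0.0499) and lost that call with library totals (0.19), with limma on log2(TPM + 1) (0.266), without a filter (0.064) and without any 1 of 9 libraries (0.063 to 0.101: Day0 and Day1 replicates 2 and 3, Day2 replicates 2 and 3, and each Day3 replicate). ALDH18A1 was called in none of the 3 steps (smallest adjusted p 0.142, Day2) but changed over the 4 days (adjusted p = 0.00493), highest on Day0 at 127, 157 and 146 CPM.

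The 7 transporters had a median log2 change of 1.47 on Day1 against Day0 and of -2.31 on Day2 against Day1. SLC7A5 (LAT1), which carries leucine and other large neutral amino acids, had 84.3, 286 and 276 CPM on Day0, 1097, 1367 and 1254 CPM on Day1, 69.8, 129 and 193 CPM on Day2 and 37.0, 66.5 and 109 CPM on Day3. Day1 lay far above the other days. It was 5.76-fold higher on Day1 than on Day0 (log2 2.53, SE 0.43, adjusted p = 0.00129) and 9.48-fold lower on Day2 than on Day1 (log2 -3.24, SE 0.45, adjusted p = 1.82e-04). SLC3A2, the heavy chain that SLC7A5 and SLC7A11 need to reach the membrane, had 180.1, 206 and 266 CPM on Day0, 562, 676 and 572 CPM on Day1, 64.2, 149 and 143 CPM on Day2 and 59.4, 57.9 and 107 CPM on Day3. It moved the same way, 2.78-fold higher on Day1 (log2 1.47, SE 0.28, adjusted p = 0.00327) and 5.09-fold lower on Day2 (log2 -2.35, SE 0.29, adjusted p = 6.76e-05).

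SLC7A11, the cystine importer, had 39.1, 125 and 104 CPM on Day0, 248, 281 and 244 CPM on Day1, 18.9, 57.9 and 69.3 CPM on Day2 and 3.71, 16.6 and 26.3 CPM on Day3. The Day1 libraries stood above all others. The Day1 step, log2 1.53 ± 0.50 (SE), did not pass (adjusted p = 0.0717), whereas the level was 5.28-fold lower on Day2 than on Day1 (log2 -2.40, SE 0.52, adjusted p = 0.00479). On Day3 it was 3.08-fold lower than on Day2 (log2 -1.63, SE 0.53, adjusted p = 0.0375), with overlap, and lost the call with library totals (0.0731), with limma on log2(TPM + 1) (0.155), with DESeq2 (0.053) and without any 1 of 6 libraries (Day1 replicate 2 or 3, Day2 replicate 2 or 3, Day3 replicate 1 or 2, adjusted p 0.0505 to 0.112). SLC7A1, the importer of arginine and lysine, was 4.96-fold lower on Day2 (30.2, 44.9 and 66.7 CPM) than on Day1 (225, 239.9 and 239 CPM, adjusted p = 4.53e-04). SLC1A5, a glutamine carrier, was 2.72-fold lower on Day2 (74.0, 98.8 and 108 CPM) than on Day1 (219, 288 and 255 CPM, adjusted p = 0.00135).

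SLC1A4 and SLC38A2 differed from the other transporters. SLC1A4, a carrier of serine and alanine, had 0.513, 1.51 and 1.38 CPM on Day0, 9.77, 12.2 and 12.1 CPM on Day1, 3.17, 8.12 and 14.7 CPM on Day2 and 2.70, 15.9 and 11.6 CPM on Day3. It was 10.04-fold higher on Day1 than on Day0 (log2 3.33, SE 0.74, adjusted p = 0.0096), and later days scattered across the Day1 range (adjusted p = 0.717 for Day2). SLC38A2 (SNAT2), which takes up small neutral amino acids, had 729.8, 993 and 902 CPM on Day0, 589, 539 and 463 CPM on Day1, 312, 292 and 296 CPM on Day2 and 407, 455 and 482 CPM on Day3. It was the only transporter called lower on Day1, 1.65-fold lower than on Day0 (log2 -0.72, SE 0.14, adjusted p = 0.00466). It was 1.77-fold lower on Day2 (log2 -0.82, SE 0.14, adjusted p = 0.00118) and 1.49-fold higher on Day3 (log2 0.58, SE 0.14, adjusted p = 0.00948), without overlap between neighbouring days.

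The abundant ER chaperones HSPA5 and HSP90B1 had their highest mean on Day2. HSPA5 (BiP), the main ER chaperone, had 1489, 1562 and 1529 CPM on Day0, 1885, 1720 and 1664 CPM on Day1, 2475, 2508 and 2479 CPM on Day2 and 1429, 1489 and 1239 CPM on Day3. The 3 Day2 libraries were nearly alike and above all others. It was 1.42-fold higher on Day2 than on Day1 (log2 0.50, SE 0.11, adjusted p = 0.00541) and 1.79-fold lower on Day3 than on Day2 (log2 -0.84, SE 0.11, adjusted p = 1.17e-04). HSP90B1 (GRP94) had 2697, 2199 and 2482 CPM on Day0, 1990, 1828 and 1944 CPM on Day1, 2733, 2538 and 2866 CPM on Day2 and 1769, 1773 and 2009 CPM on Day3. It was 1.41-fold higher on Day2 than on Day1 (log2 0.50, SE 0.12, adjusted p = 0.00713) and 1.47-fold lower on Day3 than on Day2 (log2 -0.55, SE 0.12, adjusted p = 0.00327). With limma on log2(TPM + 1) the Day2 rise lost its call for HSPA5 (adjusted p = 0.172) and HSP90B1 (0.223), so 0 of the 47 genes were then higher on Day2, and HSP90B1 lost its Day3 call (0.26). HSP90B1 lost it also with library totals (0.0525).

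HERPUD1, which helps degrade misfolded ER proteins and holds TTGCATCA in the promoter shown above, had 8.46, 13.6 and 13.4 CPM on Day0, 21.4, 41.7 and 22.7 CPM on Day1, 14.3, 18.4 and 19.5 CPM on Day2 and 51.2, 48.5 and 44.8 CPM on Day3. It was 2.43-fold higher on Day1 than on Day0 (log2 1.28, SE 0.31, adjusted p = 0.0172) and 2.77-fold higher on Day3 than on Day2 (log2 1.47, SE 0.31, adjusted p = 0.00372), when HSPA5 and HSP90B1 fell. The Day1 call rested on single libraries (adjusted p = 0.0784 without Day0 replicate 1 and 0.132 without Day1 replicate 2), and the Day3 call held under all 20 settings without a size limit. The co-chaperones DNAJB9 and SDF2L1 were called in none of the 3 steps, with smallest adjusted p of 0.32 for DNAJB9 (Day3) and 0.45 for SDF2L1 (Day2). In TPM on Day2, HSP90B1 averaged 1935 ± 207 and HSPA5 1237 ± 56.0, against 16.3 ± 3.35 for HERPUD1, 20.1 ± 11.2 for SDF2L1 and 12.8 ± 5.57 for DNAJB9 (SD, n = 3 each).

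The cytosolic tRNA synthetases load each amino acid on its tRNA. On Day1 3 of 12 rose, WARS, SARS and YARS. Called lower were 5 of 12 on Day2 and 9 of 12 on Day3, but 7 and 5 with library totals and 5 and 3 with limma on log2(TPM + 1), so the order of those days depended on the setting. WARS (tryptophan) had 84.2, 111 and 94.9 CPM on Day0, 399, 408 and 342 CPM on Day1, 79.6, 85.1 and 128 CPM on Day2 and 83.1, 88.2 and 102 CPM on Day3. Its Day1 libraries stood alone, 3.96-fold higher than Day0 (log2 1.99, SE 0.19, adjusted p = 3.87e-06), and Day2 was 3.91-fold lower than Day1 (log2 -1.97, SE 0.19, adjusted p = 7.32e-06). Both adjusted p-values were the smallest among the 47 genes in their step. YARS (tyrosine) had 179, 234 and 192 CPM on Day0, 319, 312 and 267 CPM on Day1, 188, 218 and 216 CPM on Day2 and 83.6, 83.6 and 79.1 CPM on Day3. It was 1.48-fold higher on Day1 (log2 0.57, SE 0.15, adjusted p = 0.0259), 1.44-fold lower on Day2 (log2 -0.53, SE 0.15, adjusted p = 0.0206) and 2.53-fold lower on Day3 (log2 -1.34, SE 0.15, adjusted p = 2.53e-05). The Day1 call was lost without any 1 of 4 libraries (adjusted p 0.101 to 0.114), and the Day2 call without Day1 replicate 1 (0.0916), Day1 replicate 2 (0.0813) or Day2 replicate 1 (0.084). Exons of WARS and YARS overlap those of WDR25 and S100PBP on the opposite strand by up to 211 and 158 bases, so their counts carry that uncertainty.

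On Day2, NARS, IARS, TARS and YARS were lower beside WARS, by 1.44-fold to 1.58-fold, and the 4 fitted above 0, SARS, GARS, AARS and EPRS, were not called (log2 0.09 to 0.32). GARS (glycine), at 576, 549 and 486 CPM on Day2 against 474, 416 and 402 CPM on Day1, had a log2 change of 0.32 ± 0.23 (SE, adjusted p = 0.341). TARS lost its Day2 call without Day1 replicate 2 (0.0719), Day2 replicate 1 (0.0598) or Day2 replicate 2 (0.0586).

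On Day3, 9 of 12 synthetases were lower than on Day2 and all 12 fitted changes were below 0, with IARS, LARS and WARS not called. With library totals, 5 of 12 were called lower and 9 of 12 fitted below 0, and with limma on log2(TPM + 1) 3 were called lower. MARS (methionine) had 110, 124 and 109.8 CPM on Day3, against 234, 214 and 204 CPM on Day2, and was 1.90-fold lower (log2 -0.93, SE 0.16, adjusted p = 0.00115). GARS had 245, 316 and 129 CPM on Day3, against 576, 549 and 486 CPM on Day2, and was 2.33-fold lower (log2 -1.22, SE 0.23, adjusted p = 0.00173). TARS was 1.82-fold lower (adjusted p = 0.00176), AARS 1.80-fold lower (0.00194), SARS 1.54-fold lower (0.00894) and NARS 1.52-fold lower (0.00422), all of them lost with limma on log2(TPM + 1) (0.0546 to 0.198), and SARS (0.064) and NARS (0.052) also with library totals. Library totals also ended the calls of EPRS (0.23) and CARS (0.147). EPRS lost its call (1.37-fold lower, adjusted p = 0.02) without Day2 replicate 2 (0.0513), Day3 replicate 1 (0.0625) or Day3 replicate 3 (0.0515), and CARS (1.73-fold lower, 0.0491) without any 1 of 9 libraries (0.0508 to 0.153: Day0 replicate 2, each Day1 and Day3 replicate, and Day2 replicates 2 and 3).

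Other genes of the pathways were counted in the same fits, from lists drawn up by name with earlier results of these data known. Their counts are to be read against the shares over all genes given above for each step. For the other ATF4-response genes, the shares higher on Day1 (4.55%), Day2 (9.09%) and Day3 (13.6%) were near those of all genes (3.69%, 8.67% and 11.6%). Of 22 other genes of the ATF4 response tested, 1 rose on Day1, GADD45A (3.79-fold higher, adjusted p = 1.42e-04), and 2 fell, EIF2AK4 (2.52-fold lower, adjusted p = 8.16e-04) and KLHL24 (1.92-fold lower, adjusted p = 0.0318). EIF2AK4 is GCN2, the kinase that senses uncharged tRNA. On Day2, 5 of the 22 were lower, led by XPOT (2.25-fold lower, adjusted p = 2.72e-04), which exports tRNA from the nucleus, SLC38A1 (2.27-fold lower, adjusted p = 8.71e-04) and CEBPG (2.31-fold lower, adjusted p = 0.00127), a partner of ATF4, and KLHL24 (2.23-fold higher, adjusted p = 0.00566) and EIF2S1 (1.72-fold higher, adjusted p = 0.0256), which encodes eIF2-alpha, were higher. On Day3, 3 were higher, GADD45A (2.52-fold higher, adjusted p = 0.00194), EIF2AK4 (1.57-fold higher, adjusted p = 0.0408) and BBC3 (7.13-fold higher, adjusted p = 0.0439). BBC3 averaged 0.735 CPM on Day2, near the floor of 3 counts, and 5.44 CPM on Day3. Lower on Day3 were 4, led by EIF2S1 (2.32-fold lower, adjusted p = 0.00194), MTHFD1L (2.29-fold lower, adjusted p = 0.00194) and XPOT (1.53-fold lower, adjusted p = 0.0153). With library totals 3 were higher and 2 lower on Day3, and with limma on log2(TPM + 1) 4 were higher and 3 lower.

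Of 23 other unfolded protein response genes tested, 3 rose on Day1: SEC61B (2.18-fold higher, adjusted p = 0.0209), MANF (1.75-fold higher, adjusted p = 0.0351) and SPCS3 (1.41-fold higher, adjusted p = 0.0352). On Day2 the chaperone CALR (1.52-fold higher, adjusted p = 0.00291) was higher, as were HSPA5 and HSP90B1, and SPCS3 and DERL3 were lower, SPCS3 being 1.55-fold lower (adjusted p = 0.00505). DERL3 passed barely (adjusted p = 0.0487) and averaged 2.22 CPM on Day1 and 0 CPM on Day2, below the floor of 3 counts. On Day3, 5 of the 23 were lower, led by CANX (1.59-fold lower, adjusted p = 0.0013), DNAJB11 (1.61-fold lower, adjusted p = 0.00293) and MANF (1.91-fold lower, adjusted p = 0.00728), and ATF6B (5.92-fold higher, adjusted p = 0.0029) was higher. Of 8 other cytosolic synthetases, 4 were lower on Day3, led by DARS (1.90-fold lower, adjusted p = 0.00339), KARS (1.47-fold lower, adjusted p = 0.0165) and VARS (1.54-fold lower, adjusted p = 0.0193). These counts depended on the setting: with library totals 3 of the 23 were lower on Day3, and with limma on log2(TPM + 1) 0 were. Under each of these settings 2 of the 23 were higher, and of the 8, 1 was lower and 1 higher. The same limma setting called 1 of the 23 higher on Day1 and 0 on Day2. Of 17 mitochondrial synthetases, 2 were higher on Day3 (11.8%, near the 11.6% of all genes), CARS2 (3.20-fold higher, adjusted p = 0.00944) and IARS2 (1.58-fold higher, adjusted p = 0.0296), and 16 of 17 fitted changes were above 0, against 0 of 12 for the cytosolic synthetases listed here, a difference between the groups that was not tested. On Day2, 4 of the 17 were lower, with CARS2 (3.27-fold lower, adjusted p = 0.00976) at the smallest adjusted p.

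In the presomitic course, most transporters, enzymes and synthetases were lower at the end than at the start, among them YARS (2.53-fold), SLC1A5 (2.19-fold) and ASNS (2.15-fold). DDIT4, HERPUD1 and ATF3 rose by 120 to 180 min, 3 of the 47 genes, a share near that of all genes. The 23 time points were grouped in 8 consecutive blocks, of 6 libraries each apart from the 4 libraries at 570 to 600 min. Of 47 genes tested, 39 differed among blocks (39.7% of the 13653 genes tested) and 35 among the 23 time points (28.9%). With the libraries of 1 replicate only, 24 (without replicate 2) or 28 (without replicate 1) differed among blocks. Over all genes, 2208 differed without replicate 2, against 5423 in the main fit. The mean was highest at 30 to 90 min for 24 of the 47, against 17.9% of all genes.

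At 120 to 180 min, 3 of the 47 genes were higher than at 30 to 90 min (6.38%, near the 5.63% of all genes). Lower were 6 (12.8%, against 2.58% of all). The 3 were DDIT4, ATF3 and HERPUD1. The 6 were WARS (1.38-fold lower, adjusted p = 0.00594), CBS (1.29-fold lower, 0.00686), TARS (0.0152), SLC7A11 (0.0222), SLC1A5 (0.0227) and SLC3A2 (0.0365), all by less than 1 log2 unit. WARS ran at 68.3 to 112 CPM (median 102) in the 6 libraries at 120 to 180 min, against 127 to 144 CPM (median 131) at 30 to 90 min, without overlap, and the other 5 overlapped. CBS ran at 186 to 259 CPM (median 215), against 236 to 312 CPM (median 281). All 6 lost the call when the libraries of replicate 1, or those of replicate 2, were left out (adjusted p 0.188 to 0.484). With library totals 9 of the 47 were lower and the share of higher genes among all calls was 51.2% in place of 68.6%. Neural markers summed to 370.5 to 614 CPM at 120 to 180 min, against 236 to 389 CPM at 30 to 90 min, and their part was not tested.

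At 630 to 690 min, 6 of the 47 genes were higher than at 30 to 90 min (12.8%, near the 12.2% of all genes). Lower were 26 (55.3%, against 11.3% of all). With a limit of 1 log2 unit, 3 were higher (4.89% of all) and 7 lower (4.35%). The median log2 change was -0.57, against -0.00468 over all genes. The 26 held 9 of 12 synthetases, 7 of 11 enzymes, 5 of 7 transporters, HSPA5, SDF2L1, STC2, CHAC1 and ATF4. The 6 were HERPUD1, DDIT4, VLDLR, ATF3, SLC38A2 and CTH. Of the 32 calls, 21 held under all 9 other settings that put no limit on the size of the change. Without the libraries of replicate 2 the lower genes numbered 17 (585 over all genes, against 1545 in the main fit). Among the calls then lost were those of ATF4 (adjusted p = 0.311, and 0.138 without replicate 1), HSPA5 (0.333), AARS (0.377), SDF2L1 (0.197), CHAC1 (0.246, and 0.219 without replicate 1) and STC2 (0.266, and 0.143). CTH (adjusted p = 0.0496) lost its call under 6 of the 9. Neural markers summed to 360.3 to 462 CPM at 630 to 690 min, against 236 to 389 CPM at 30 to 90 min. Between these blocks the means of TUBB3 (190 to 305 CPM), STMN2 (97.0 to 106) and SOX1 (1.78 to 2.83) rose. Those of PAX6 (9.46 to 7.94 CPM) and ELAVL3 (3.18 to 2.71) were lower. The part of neural markers in these changes was not tested.

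**Figure D4:**
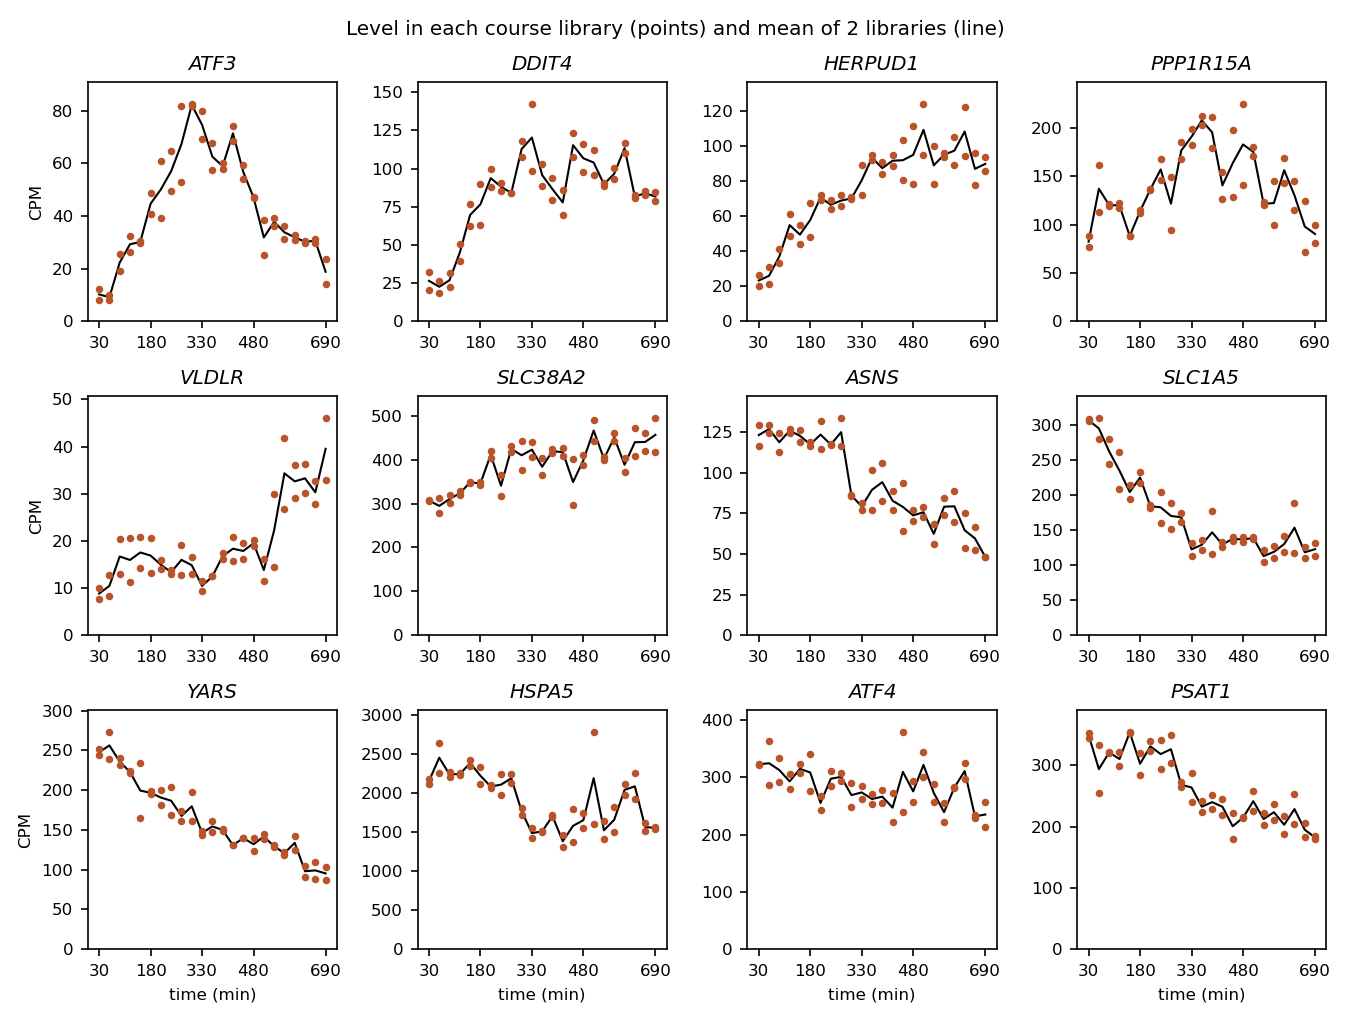
CPM of 12 genes (panels, own linear scale from 0) at each of the 23 time points from 30 to 690 min, with both libraries as points and their mean as a line. ATF3 is highest at 300 min, PPP1R15A at 360 min, and ASNS, SLC1A5, YARS and PSAT1 end lower than they start.

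Among the factors, ATF3 made a broad peak. It began at 8.14 and 12.3 CPM at 30 min and 10.04 and 8.26 CPM at 60 min, stood at 81.8 and 82.4 CPM at 300 min, its highest, and ended at 23.5 and 14.1 CPM at 690 min. Both libraries at 300 min were close together, and no other library was higher. It was 2.52-fold higher at 120 to 180 min (log2 1.33, SE 0.20, adjusted p = 5.13e-06) and 1.92-fold higher at 630 to 690 min (log2 0.94, SE 0.20, adjusted p = 2.66e-04) than at 30 to 90 min, the last lost without the libraries of replicate 1 (adjusted p = 0.141). ATF4 ran at 213 to 325 CPM (median 246) at 630 to 690 min, against 286 to 364 CPM (median 323) at 30 to 90 min, and was 1.23-fold lower, with overlap (log2 -0.30, SE 0.10, adjusted p = 0.0216, lost without the libraries of either replicate). Over the 8 blocks its change did not pass (adjusted p = 0.103). XBP1 changed among the blocks (adjusted p = 0.00127). It ran at 43.7 to 82.5 CPM (median 80.1) at 30 to 90 min and 37.3 to 51.9 CPM (median 40.1) at 300 to 360 min. At 630 to 690 min it ran at 53.7 to 74.4 CPM (median 65.1). Its lowest mean of any time point was at 240 min (28.3 and 44.3 CPM). DDIT3 changed too (adjusted p = 0.00449), with its highest mean at 150 min (10.1 and 13.9 CPM) and its lowest at 570 min (0.705 and 3.55 CPM).

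DDIT4 rose early and stayed high. It had 32.6 and 20.5 CPM at 30 min, 63.2 and 90.0 CPM at 180 min, 142 and 98.5 CPM at 330 min, its highest, and 78.7 and 84.7 CPM at 690 min. The 6 libraries at 120 to 180 min and the 6 at 630 to 690 min all lay above the 6 at 30 to 90 min. It was 2.52-fold higher at 120 to 180 min (log2 1.33, SE 0.15, adjusted p = 1.06e-09) and 3.25-fold higher at 630 to 690 min (log2 1.70, SE 0.14, adjusted p = 6.67e-15). PPP1R15A was highest in the middle, with 167 to 212 CPM (median 192) at 300 to 360 min between 76.7 to 161 CPM (median 116) at 30 to 90 min and 71.7 to 145 CPM (median 107) at 630 to 690 min (any difference among blocks, adjusted p = 7.13e-06). VLDLR ran at 27.9 to 46.0 CPM (median 32.9) at 630 to 690 min, against 7.78 to 20.5 CPM (median 11.3) at 30 to 90 min, and was 2.87-fold higher (log2 1.52, SE 0.21, adjusted p = 1.83e-08). STC2 ran at 0.325 to 7.58 CPM (median 3.15) at 630 to 690 min, against 8.10 to 15.3 CPM (median 9.21) at 30 to 90 min, and was 2.92-fold lower (log2 -1.54, SE 0.53, adjusted p = 0.0242, 0.143 without replicate 1 and 0.266 without replicate 2).

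HERPUD1 rose through most of the course, with 20.0 to 41.1 CPM (median 28.8) at 30 to 90 min, 43.9 to 67.7 CPM (median 52.0) at 120 to 180 min, 69.6 to 94.8 CPM (median 80.6) at 300 to 360 min and 78.2 to 122 CPM (median 94.2) at 630 to 690 min. It was 1.90-fold higher at 120 to 180 min (log2 0.92, SE 0.14, adjusted p = 2.75e-06) and 3.33-fold higher at 630 to 690 min (log2 1.74, SE 0.14, adjusted p = 1.94e-16) than at 30 to 90 min, without overlap. HSPA5 ran at 1510.5 to 2250.1 CPM (median 1589) at 630 to 690 min, against 2116 to 2644 CPM (median 2233) at 30 to 90 min (1.31-fold lower, log2 -0.40, SE 0.11, adjusted p = 0.00394, lost without the libraries of replicate 2 at 0.333). Those blocks overlapped. HSP90B1 was not called at 630 to 690 min (log2 -0.23 ± 0.11, SE, adjusted p = 0.118).

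Of the enzymes, ASNS lay lower in every library from 300 min on than in any earlier one. It had 117 and 129.5 CPM at 30 min, 134 and 116 CPM at 270 min, 85.7 and 86.2 CPM at 300 min and 48.1 and 48.2 CPM at 690 min. Across blocks it held 115 to 134 CPM (median 117) at 210 to 270 min, then 76.7 to 102 CPM (median 83.6) at 300 to 360 min, ranges that do not meet. It was 2.15-fold lower at 630 to 690 min than at 30 to 90 min (log2 -1.10, SE 0.11, adjusted p = 9.71e-13). PSAT1 ran at 295 to 349 CPM (median 331) at 210 to 270 min against 255 to 354 CPM (median 328) at 30 to 90 min, and ended at 179.7 to 253 CPM (median 195) (1.59-fold lower, adjusted p = 2.61e-08). PYCR1 (2.03-fold lower, 2.32e-07), CBS (1.76-fold lower, 1.80e-10), MTHFD2 (1.70-fold lower, 5.29e-07), SHMT2 (1.65-fold lower, 1.61e-08) and PHGDH (1.62-fold lower, 1.39e-06) were lower too, each without overlap between those blocks.

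Of the transporters, 5 of 7 were lower at the end. SLC1A5, the glutamine carrier, had 305 and 309 CPM at 30 min, 217 and 234 CPM at 180 min, 131 and 114 CPM at 330 min and 132 and 113 CPM at 690 min. Both libraries at 330 min were as low as those at 690 min. It was 2.19-fold lower at 630 to 690 min than at 30 to 90 min (log2 -1.13, SE 0.11, adjusted p = 2.00e-12), and lower levels were also called for SLC7A11 (2.17-fold lower, adjusted p = 6.70e-09), SLC3A2 (1.86-fold lower, 9.93e-09), SLC7A5 (1.76-fold lower, 3.96e-08) and SLC7A1 (1.53-fold lower, 2.49e-04, lost without the libraries of replicate 2 at 0.0737). SLC38A2 was the 1 transporter called higher, with 408 to 495 CPM (median 441) at 630 to 690 min, against 278 to 320.3 CPM (median 307) at 30 to 90 min, 1.47-fold higher (log2 0.55, SE 0.09, adjusted p = 4.98e-07).

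Of the synthetases, YARS fell through the whole course, with 232 to 273 CPM (median 242) at 30 to 90 min, 161 to 204 CPM (median 177) at 210 to 270 min, 130.5 to 152 CPM (median 139.6) at 390 to 450 min and 87.4 to 109.6 CPM (median 97.1) at 630 to 690 min. It was 2.53-fold lower at the end (log2 -1.34, SE 0.09, adjusted p = 6.41e-19), the smallest adjusted p of the 47 genes. MARS was 1.82-fold lower (adjusted p = 3.19e-12), NARS 1.59-fold lower (2.09e-08), TARS 1.58-fold lower (6.82e-09), IARS 1.55-fold lower (7.74e-07) and WARS 1.55-fold lower (1.60e-05). GARS, CARS and AARS were lower as well, and lost the call without the libraries of replicate 2 (adjusted p = 0.0533 for GARS, 0.0793 for CARS and 0.377 for AARS). GARS had its highest mean at 150 min (374 and 419 CPM), above both libraries at 690 min (174 and 177 CPM). SARS, LARS and EPRS were not called at the end, but each differed among the 8 blocks, with adjusted p of 8.23e-04 for SARS, 0.0153 for LARS and 5.38e-04 for EPRS.

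The same lists were counted in the course. At 630 to 690 min, 3 of 23 other ATF4-response genes (13%, near the 12.2% of all genes) were higher than at 30 to 90 min, KLHL24 (4.51-fold higher, adjusted p = 8.71e-15), GADD45A (1.70-fold higher, adjusted p = 1.44e-06) and SLC6A9 (1.87-fold higher, adjusted p = 0.0084), and 5 were lower, led by MTHFD1L (1.93-fold lower, adjusted p = 3.87e-10), XPOT (1.39-fold lower, adjusted p = 4.79e-04) and PCK2 (1.52-fold lower, adjusted p = 9.11e-04). Of 24 other unfolded protein response genes, 8 were lower, led by PDIA4 (1.39-fold lower, adjusted p = 8.61e-06), CRELD2 (1.73-fold lower, adjusted p = 3.67e-04) and DNAJB11 (1.32-fold lower, adjusted p = 3.97e-04), all ER folding genes, and 3 were higher (12.5%, also near the 12.2% of all genes), MBTPS1 (1.33-fold higher, adjusted p = 2.49e-04), ATF6 (1.54-fold higher, adjusted p = 0.0123) and ATF6B (1.62-fold higher, adjusted p = 0.0276), which encode the protease and the factors of the ATF6 arm. Of 8 other cytosolic synthetases 1 was lower (12.5%, near the 11.3% of all genes), VARS (1.48-fold lower, adjusted p = 4.14e-06). Of 17 mitochondrial ones 4 were lower (23.5%), led by AARS2 (1.402-fold lower, adjusted p = 0.00653). At 120 to 180 min, 3 of the 23 other ATF4-response genes were higher (13%, against 5.63% of all genes). They were KLHL24 (2.73-fold higher, adjusted p = 1.31e-07), EIF2S1 and BBC3. Lower was 1 of the 23 (4.35%, against 2.58% of all), SLC38A1 (1.34-fold lower, adjusted p = 0.00874).

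A rhythm was sought because the series concerns the segmentation clock, the oscillator that paces somite formation. A cosine and sine of 300 min beside a quadratic trend were called in 0 of the 47 genes by edgeR, against 0.132% of all genes, with 7 at an unadjusted p under 0.05, and in 0 by DESeq2 and by limma. SARS came nearest (adjusted p = 0.134, trough to peak 0.350 log2). With a period of 330 min, 5 were called, SARS (adjusted p = 0.0127), HSPA5 (0.0201), GARS (0.0365), EPRS (0.0368) and PSAT1 (0.0462), with trough to peak differences of 0.256 to 0.406 log2, among 615 of 13653 genes then called.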

How the data were processed

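RNA of the 58 samples had been made into LM-seq libraries, per the labels' protocols. The authors deposited a table of expected counts and a table of TPM per gene for the whole series. Bowtie 0.12.2, hg19 and mm8 are named in the submitters' processing notes. The quantification program, annotation and strand setting were not given in the sources used here. Expected counts were rounded to whole numbers.

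Genes with enough counts (filterByExpr) were scaled by TMM and tested with edgeR 4.0.16 in R 4.3.3, by quasi-likelihood F tests with Benjamini-Hochberg adjustment over all genes tested (12765 over the days, 13653 over the course), and called at an adjusted p under 0.05. The days and the course were fitted apart, so no level is set across them. The course was tested over 23 time points, over 8 blocks of neighbouring times, between blocks, and for a 300 min rhythm. Alternatives were RLE scaling, library totals, no filter, a limit of 1 log2 unit, limma 3.58.1 on log2(TPM + 1) and log2(TPM + 0.1), DESeq2 1.42.0, fits on 2 groups alone, the replicate number as a block, other periods, and leaving out each replicate. The code was checked on simulated data. A daily library's floor of 3 counts lay at 0.384 to 0.949 CPM, and a course library's at 0.335 to 1.18 CPM. No libraries were near-identical.

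The genes, lists and sequences to show were chosen with earlier results of these data known. Shown in full are 12 preset genes over the days and, per comparison, the 5 called genes with the smallest adjusted p and the 3 with the largest change at 5 CPM or more. From each list of other genes, up to 3 called per direction are named. Promoters are from RefSeq (GRCh38.p14), and exon overlaps from an annotation other than the authors'.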

Additional observations from a re-analysis of the deposited data

How the results depend on the processing

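Numbers in brackets are calls over all genes, of 12765 tested over the days and 13653 over the course. In the main fits 471 were higher and 460 lower on Day1, 1107 and 1462 on Day2, and 1483 and 1407 on Day3. A limit of 1 log2 unit left 20 of the 47 genes changed over the time points (2738) and 12 over the blocks (2162). It left 3 higher (667) and 7 lower (594) at 630 to 690 min, and 0 lower at 120 to 180 min (66). It left 0 lower on Day1 (314), 0 higher on Day2 (457) and 4 lower on Day3 (515). limma on log2(TPM + 0.1) gave 5 higher on Day1 (250). With either pseudocount limma gave 0 higher on Day2 (397 at 0.1, 458 at 1) and 7 lower on Day3 (443 at 0.1, 506 at 1). DESeq2 gave 2 lower on Day1 (754). Library totals gave 2 lower on Day1 (490), and 5 higher (2283) and 9 lower (699) on Day3. With the 6 libraries of both days alone there were 27 higher (1157) and 3 lower (1141) on Day1 and 10 lower on Day3 (574). In the rhythm test, 1 gene was called without a filter (644 of 17159 genes) and 5 at 330 min (615). Leaving out each replicate gave 38 to 44 genes changed over the days, 24 to 28 over the blocks, 4 to 5 higher and 17 to 24 lower at 630 to 690 min, 3 higher and 0 lower at 120 to 180 min, 9 to 18 higher and 1 to 2 lower on Day1, 2 higher and 20 to 27 lower on Day2, and 3 to 5 higher and 12 to 19 lower on Day3. Calls over all genes moved as well. Without the libraries of replicate 2, 2208 differed over the blocks, 585 were lower at 630 to 690 min and 46 at 120 to 180 min. Leaving out a replicate number leaves 1 library per time point, so the test over time points then has no residual degrees of freedom and was not run. The cause of these shifts was not tested.

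Among the 12 preset genes over the days, uncalled log2 changes of 4 turned sign: ATF4 on Day2 (-0.13 to 0.071 without 1 library), CHAC1 on Day3 (-2.04 to 1.75), DDIT3 on Day3 (-0.11 to 0.35) and XBP1 on Day3 (-0.40 to 0.029 without 1 library, 0.019 with library totals and 0.044 with limma at either pseudocount). Over the 47, library totals put 20 in place of 14 above 0 on Day3, synthetases among them, and 13 in place of 18 at 120 to 180 min.

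Replicate numbers gave little sign of pairing the libraries: 3 of 18 same-number pairs of days correlated above 0.1 (range -0.133 to 0.196), 6 of 12 libraries correlated best with their own number, and 1 of 253 pairs of time points reached above 0.1. With so few libraries per group, such correlations cannot show that pairing is absent. With the replicate number as a block there were 42 genes changed over the days (5426 over all genes), 19 higher (490) and 1 lower (466) on Day1. There were 2 higher (1053) and 26 lower (1466) on Day2, and 3 (1433) and 18 (1373) on Day3. In the course there were 35 over the time points (3831), 40 over the blocks (5369) and 0 rhythmic (14). At 120 to 180 min 3 were higher (762) and 6 lower (350), and at 630 to 690 min 5 (1646) and 26 (1535). Low counts limit CHAC1, CEBPB, TRIB3 and DDIT3, with a few CPM in several daily libraries.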
